A study of Rattus norvegicus with 8 samples.

Results

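The genes described here encode proteins of the mitochondrial ribosome and of the machinery that brings proteins into mitochondria. They were chosen by name: every gene on the array whose symbol starts with Mrpl, Mrps, Timm or Tomm followed by a digit. This gave 93 of the 10411 genes named on the array. There were 45 Mrpl genes (named for the large ribosomal subunit) and 26 Mrps genes (named for the small subunit). The rest were 13 Timm genes (inner membrane import) and 9 Tomm genes (outer membrane import). A gene with several probe sets is represented by the brightest of them, judged by the average log2 signal of the 8 arrays.

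Messenger RNA was measured in primary hepatocytes, liver cells freshly isolated with digestive enzymes and kept in culture overnight, from 4 rats (Rattus norvegicus). Cells of each rat were either left in culture medium alone (control, n = 4) or given cadmium chloride, a toxic metal salt that the liver takes up, at 4 µM for 3 h (cadmium, n = 4). Every culture was listed with 4 h in a medium with albumin, and no exposure time was listed for the controls. No genetic change or other agent is named for any group, and the labels state no strain, sex or age. The cells were kept outside the body on collagen, so the comparison is between cultures of the same animal, and fewer cells of a type and less RNA per cell cannot be told apart.

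Mitochondria translate a small set of respiratory chain proteins from their own genome, on ribosomes whose proteins are all encoded in the nucleus. Those proteins, like most others of the organelle, are made in the cytosol and enter through the TOM complex of the outer membrane. From there the TIM23 complex passes proteins with a cleavable presequence into the matrix or inner membrane, small TIM chaperones escort hydrophobic proteins through the intermembrane space, and the TIM22 complex inserts metabolite carriers. Hepatocytes are rich in mitochondria, which carry out oxidative phosphorylation and parts of the urea cycle in these cells.

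Of the 92 members bright enough to be tested, 1 rose and 1 fell after cadmium, and 90 did not pass the test. Mrps6, a protein of the small ribosomal subunit, rose by 0.58 ± 0.12 on the log2 scale (SE, n = 4 rats), and Mrpl42, a protein of the large subunit, fell by 0.46 ± 0.10. The 2 calls are set against 5.15% of all 9519 tested probe sets called by the same rule (adjusted p under 0.05 in a limma fit with the rat as a block, Benjamini-Hochberg over all tested probe sets), 2.86% higher and 2.29% lower. An unadjusted p under 0.05 was reached by 12 of the 92 members, beside 20.4% of all tested probe sets. Most intervals were narrow: for 79 of 92 (85.9%) the 95% interval of the change lay within 1.5-fold in either direction, as for 63.8% of all tested probe sets. The member left untested was Timm44, which tethers the import motor to TIM23; its only probe set was below the filter, with signals from 10.5 to 99.2 in controls and from 7.5 to 15.8 after cadmium.

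The start regions of 4 genes are shown. Mrps6 and Mrpl42 are the members that passed. Mrps18b and Tomm20, which did not pass with the chosen probe set, are the other members whose signals were higher after cadmium in every rat. Members lower in every rat, other than Mrpl42, are not shown. Of these, Mrpl15 and Mrps21 had smaller adjusted p-values than the chosen probe sets of Mrps18b and Tomm20. The sequences are from RefSeq, rat build GRCr8, and run 5′ to 3′ on the gene's strand from 250 bases before to 50 bases after the annotated start. They lie at chr11:44778417-44778716 (plus strand, Mrps6), chr7:32028473-32028772 (minus strand, Mrpl42), chr20:2842756-2843055 (plus strand, Mrps18b) and chr19:71832371-71832670 (minus strand, Tomm20). Capitals mark matches, on either strand, to the motif named for each, with bases counted from 1 at the left end; matches to different motifs did not overlap in these 4 regions. In Mrps6 they are AAGATGGC, the core of YY1 sites, from base 248, and in Mrpl42 the same letters from base 270. In Mrps18b they are the NRF1 core from base 231 and AAGATGGC from base 279. In Tomm20 they are TGACNNNGC, the core of antioxidant response elements, from base 4, the NRF1 core from base 147 and CCGGAAGT, an ETS-family core, from base 223.
Mrps6: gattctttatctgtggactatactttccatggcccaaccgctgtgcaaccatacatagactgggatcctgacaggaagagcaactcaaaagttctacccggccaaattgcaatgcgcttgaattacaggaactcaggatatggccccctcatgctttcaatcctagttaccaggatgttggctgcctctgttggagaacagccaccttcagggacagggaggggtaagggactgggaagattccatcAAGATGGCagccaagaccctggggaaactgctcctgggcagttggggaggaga
Mrpl42: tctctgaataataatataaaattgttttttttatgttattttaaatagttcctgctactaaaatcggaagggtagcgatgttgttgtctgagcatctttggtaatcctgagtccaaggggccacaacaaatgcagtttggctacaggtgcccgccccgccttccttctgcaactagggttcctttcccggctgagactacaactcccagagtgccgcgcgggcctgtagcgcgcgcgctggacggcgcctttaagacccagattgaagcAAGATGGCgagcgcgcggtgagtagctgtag
Mrps18b: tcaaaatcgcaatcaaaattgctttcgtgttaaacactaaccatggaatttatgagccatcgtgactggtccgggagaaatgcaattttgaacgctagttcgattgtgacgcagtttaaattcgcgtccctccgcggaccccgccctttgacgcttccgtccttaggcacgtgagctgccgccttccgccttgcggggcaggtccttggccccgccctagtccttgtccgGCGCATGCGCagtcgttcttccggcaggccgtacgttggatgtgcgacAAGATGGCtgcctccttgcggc
Tomm20: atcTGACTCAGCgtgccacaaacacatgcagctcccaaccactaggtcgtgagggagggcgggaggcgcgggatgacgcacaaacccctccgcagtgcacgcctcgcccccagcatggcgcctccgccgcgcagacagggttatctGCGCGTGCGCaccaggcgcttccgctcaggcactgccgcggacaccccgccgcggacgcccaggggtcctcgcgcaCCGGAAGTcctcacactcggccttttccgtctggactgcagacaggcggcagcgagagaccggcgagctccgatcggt

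YY1, NRF1 and the ETS-family factor GABP are transcription factors known to act on many nuclear genes for mitochondrial proteins. Promoters of the same length were found for 77 of the 93 members, and 7 motifs were searched in them on both strands. The letters AAGATGGC stood in 16 of the 77 (20.8%), beside 5.13% of the 8611 promoters of genes on the array and 3.44% of all 27457 in the reference table. They stood both in the gene that rose and in the gene that fell. The NRF1 core stood in 12 (15.6%) beside 9.02% of genes on the array, and CCGGAAGT in 11 (14.3%) beside 7.08%. The antioxidant letters TGACNNNGC stood in 10 (13%) beside 14.6%. These 10 include Tomm20, higher in every rat, and Mrpl34 and Mrps21, lower in every rat. A heat shock element stood in none of the 77 and in 0.43% of genes on the array, the cyclic AMP response letters TGACGTCA in 1, and a palindromic element of housekeeping promoters in 1. Median log2 changes were -0.10 with and -0.08 without AAGATGGC, -0.09 with and -0.09 without the NRF1 core, and -0.02 with and -0.09 without CCGGAAGT. These matches are descriptions of letters in a window, and binding was not measured.

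Among the genes with an Mrpl symbol, 1 of 45 fell, none rose and 44 did not pass. Mrpl42 gave control signals of 1800, 1849, 1755 and 1763 in rats 1 to 4, and 1387, 1376, 1446 and 1047 after cadmium. All 4 cadmium arrays lay below all 4 controls, with rat 4 lowest. The mean signal went from 1792 ± 42.8 to 1314 ± 180.5 (SD, n = 4), a log2 change of -0.46 ± 0.10 (SE; 95% interval -0.69 to -0.23; limma adjusted p = 0.0364). The call was lost without the rat as a block (adjusted p = 0.0597), without the filter (0.0584), with median centring (0.0792), without a variance trend (0.0998) and without rat 1, 2 or 3 (0.108, 0.136 and 0.0927).

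Mrpl15 and Mrpl34, both homologous to bacterial large subunit proteins, were also lower in every rat but did not pass. Mrpl15 read 1696, 1773, 1878 and 1623 in controls and 1346, 1452, 1529 and 1130 after cadmium, a log2 difference of -0.36 ± 0.09 (SE; limma adjusted p = 0.0512). Mrpl34 read 481.5, 518, 463 and 605 in controls and 410, 371, 376 and 335 after cadmium, a log2 difference of -0.47 ± 0.13 (SE; limma adjusted p = 0.0894). In neither gene did the groups overlap, and rat 4 again gave the lowest cadmium signal. At the other end of the subfamily stood Mrpl2, which lines the region near the peptidyl transferase centre, at 0.24 ± 0.17 (SE; limma adjusted p = 0.478). Mrpl1, a protein of the stalk beside the transfer RNA exit, followed at 0.12 ± 0.13. Mrpl32, whose maturation by a mitochondrial protease precedes ribosome assembly, was at 0.08 ± 0.09. Mrpl2 was higher in rats 1 to 3 (log2 differences 0.41, 0.61 and 0.38) and lower in rat 4 (-0.45), and it passed only when rat 4 was left out (adjusted p = 0.0407). Rat 4 was also the extreme for Mrpl48, another large subunit protein, with log2 differences of -0.01, 0.65, 0.12 and -1.61 in rats 1 to 4.

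Among the genes with an Mrps symbol, 1 of 26 rose, none fell and 25 did not pass. Mrps6, the counterpart of bacterial ribosomal protein S6, gave control signals of 806.5, 1065, 971 and 864 in rats 1 to 4, and 1219.8, 1658, 1135 and 1571 after cadmium. Every cadmium array lay above every control, with rat 3 showing the smallest rise. The mean went from 927 ± 115 to 1396 ± 257.5 (SD, n = 4), a log2 change of 0.58 ± 0.12 (SE; 95% interval 0.32 to 0.84; limma adjusted p = 0.0257). The call was lost without the rat as a block (adjusted p = 0.0615), without a variance trend (0.0769) and without rat 1 or rat 2 (0.101 and 0.125).

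Mrps18b, a mammalian relative of bacterial S18, read 2315, 2620, 2398 and 2242 in controls and 3016, 2764, 2672 and 2676.5 after cadmium. The groups did not overlap, but the log2 difference of 0.22 ± 0.08 did not pass (SE; limma adjusted p = 0.187). Mrps9, the counterpart of bacterial S9, had the next highest log2 difference, 0.16 ± 0.15, with rats on both sides of 0. The lowest of the subfamily was Mrps21, the counterpart of bacterial S21, at 1074, 1220, 1303 and 1436 in controls and 852, 1056, 937 and 844 after cadmium. Its groups did not overlap, and its log2 difference of -0.45 ± 0.11 missed the threshold (SE; limma adjusted p = 0.0564). Mrps17, whose bacterial counterpart binds ribosomal RNA early in assembly, followed at -0.42 ± 0.14 with rats between -0.97 (rat 4) and -0.03 (rat 2), and Mrps12, a protein of the decoding centre, at -0.31 ± 0.10. Mrps30, which despite its symbol belongs to the large subunit in mammals, was lower in 4 of 4 rats at -0.20 ± 0.09.

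**Figure D1:**
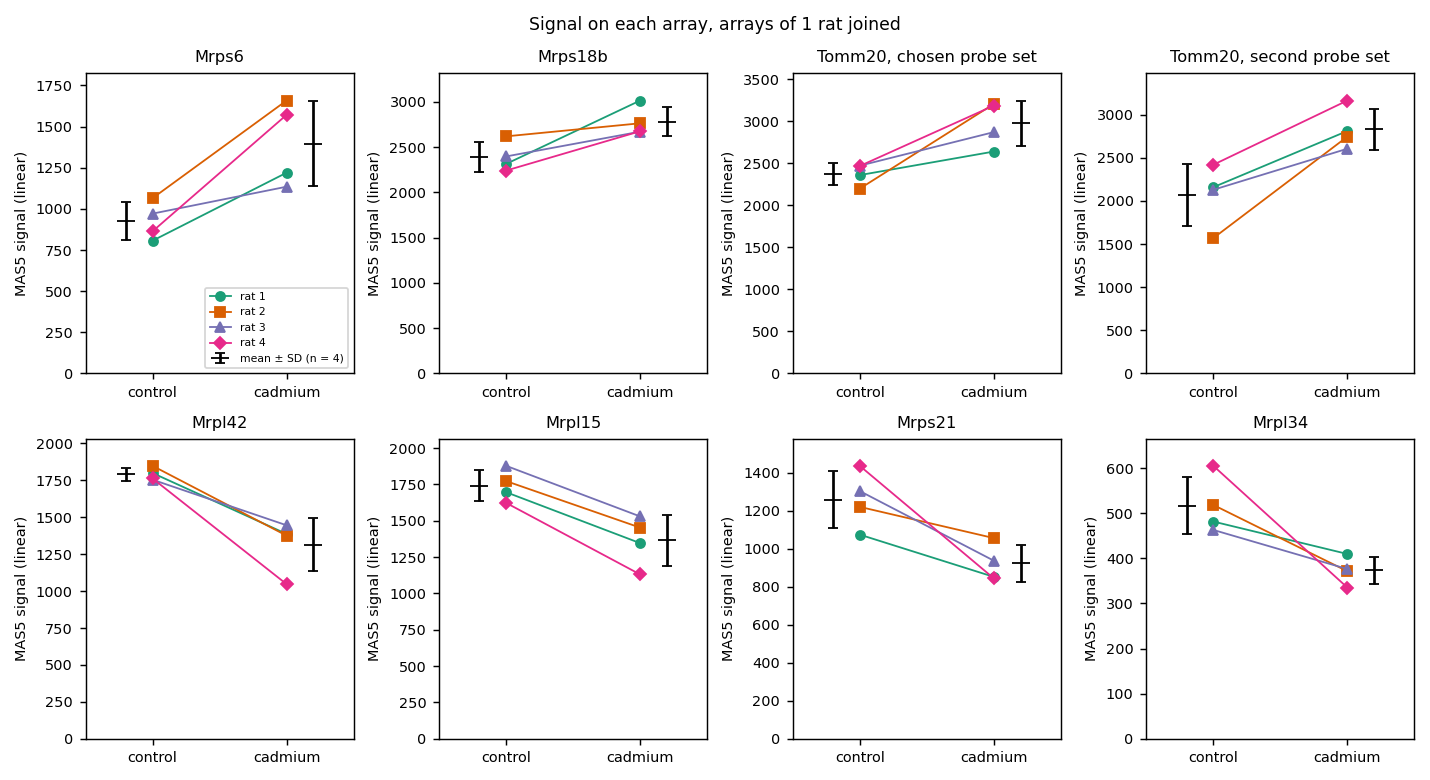
MAS5 signal (vertical axis, linear, from 0) of Mrps6, Mrps18b, both Tomm20 probe sets, Mrpl42, Mrpl15, Mrps21 and Mrpl34 in control and cadmium cultures, with a line joining the 2 arrays of each rat and black bars giving mean ± SD (n = 4). All lines of the upper row run up and all of the lower row run down; in Mrpl42 the cadmium array of rat 4 (1047) lies apart from the other 3 (1376 to 1446).

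None of the 12 tested inner membrane import genes passed in either direction, and 11 of them had a log2 change below 0; in limma 1 of them, Timm21, reached an unadjusted p under 0.05. Within the TIM23 complex, Timm21, which links import to respiratory chain assembly, read 347.5, 382, 346 and 383 in controls and 314, 254, 262 and 303 after cadmium. Its groups did not overlap and its log2 difference of -0.37 ± 0.13 did not pass (SE; limma adjusted p = 0.153). The channel subunit Timm17a was at -0.21 ± 0.11, and the receptor Timm50 at -0.04 ± 0.09. Over the 4 tested TIM23 genes the median log2 change was -0.16.

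Of the 6 small TIM chaperones, with a median log2 change of -0.15, Timm8b was at -0.25 ± 0.11 and Timm10b at -0.21 ± 0.12 (SE; limma adjusted p = 0.248 and 0.366). In both, rats 1 to 3 lay close to 0 (-0.16 to -0.09 and -0.11 to -0.06) and rat 4 lay at -0.64 and -0.57. Timm9 and Timm10, which together form the chaperone of the carrier route, were at -0.17 ± 0.09 and -0.13 ± 0.09. Timm13, the brightest gene of the subfamily with control signals of 3815 to 4563, was at -0.07 ± 0.07. Its partner Timm8a1 was the only tested Timm gene above 0, at 0.10 ± 0.13, with rat 2 alone at 0.41. For the TIM22 complex, Timm22, the carrier insertion channel, was at -0.09 ± 0.11, and Timm29 was at -0.14 ± 0.13.

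None of the 9 outer membrane import genes passed in limma with its chosen probe set, and 1, Tomm20, reached an unadjusted p under 0.05. Tomm20, the receptor that recognises presequences, came nearest, with 2360 (rat 1), 2198 (rat 2), 2471.5 (rat 3) and 2468 (rat 4) in controls and 2640 (rat 1), 3205 (rat 2), 2871 (rat 3) and 3186 (rat 4) after cadmium. The groups did not overlap, and the log2 difference was 0.32 ± 0.09 (SE; limma adjusted p = 0.0807). The suffix of this probe set's name marks probes that match more than 1 transcript. The second Tomm20 probe set, dimmer on average and so not the chosen one, read 2159.8, 1569.6, 2129.8 and 2420.2 in controls and 2812, 2746, 2606 and 3165 after cadmium. It passed, with a mean of 2069.8 ± 358 against 2832 ± 238 (SD, n = 4) and a change of 0.47 ± 0.10 (log2, SE; limma adjusted p = 0.0356). Both probe sets were higher after cadmium in 4 of 4 rats. That call was lost without the rat as a block (adjusted p = 0.0986), the filter (0.0618) or a variance trend (0.107), with quantile normalization (0.0547) and without rat 1, 2 or 3 (0.104, 0.135 and 0.0881).

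The receptor for carrier precursors, Tomm70, was at 0.15 ± 0.12, with rats 1 to 3 between -0.04 and 0.05 and rat 4 at 0.59. The channel Tomm40 was at -0.07 ± 0.13, and its dimmer relative Tomm40l at 0.19 ± 0.21. The central receptor Tomm22 was at -0.11 ± 0.10. The small subunits that stabilise the channel were all below 0, with Tomm5 at -0.19 ± 0.10, Tomm6 at -0.10 ± 0.09 and Tomm7 at -0.09 ± 0.07, the last lower in 4 of 4 rats. Tomm34, a cytosolic cochaperone that carries the family name, was at 0.06 ± 0.12. No member of this subfamily other than Tomm20 was higher in every rat.

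**Figure D2:**
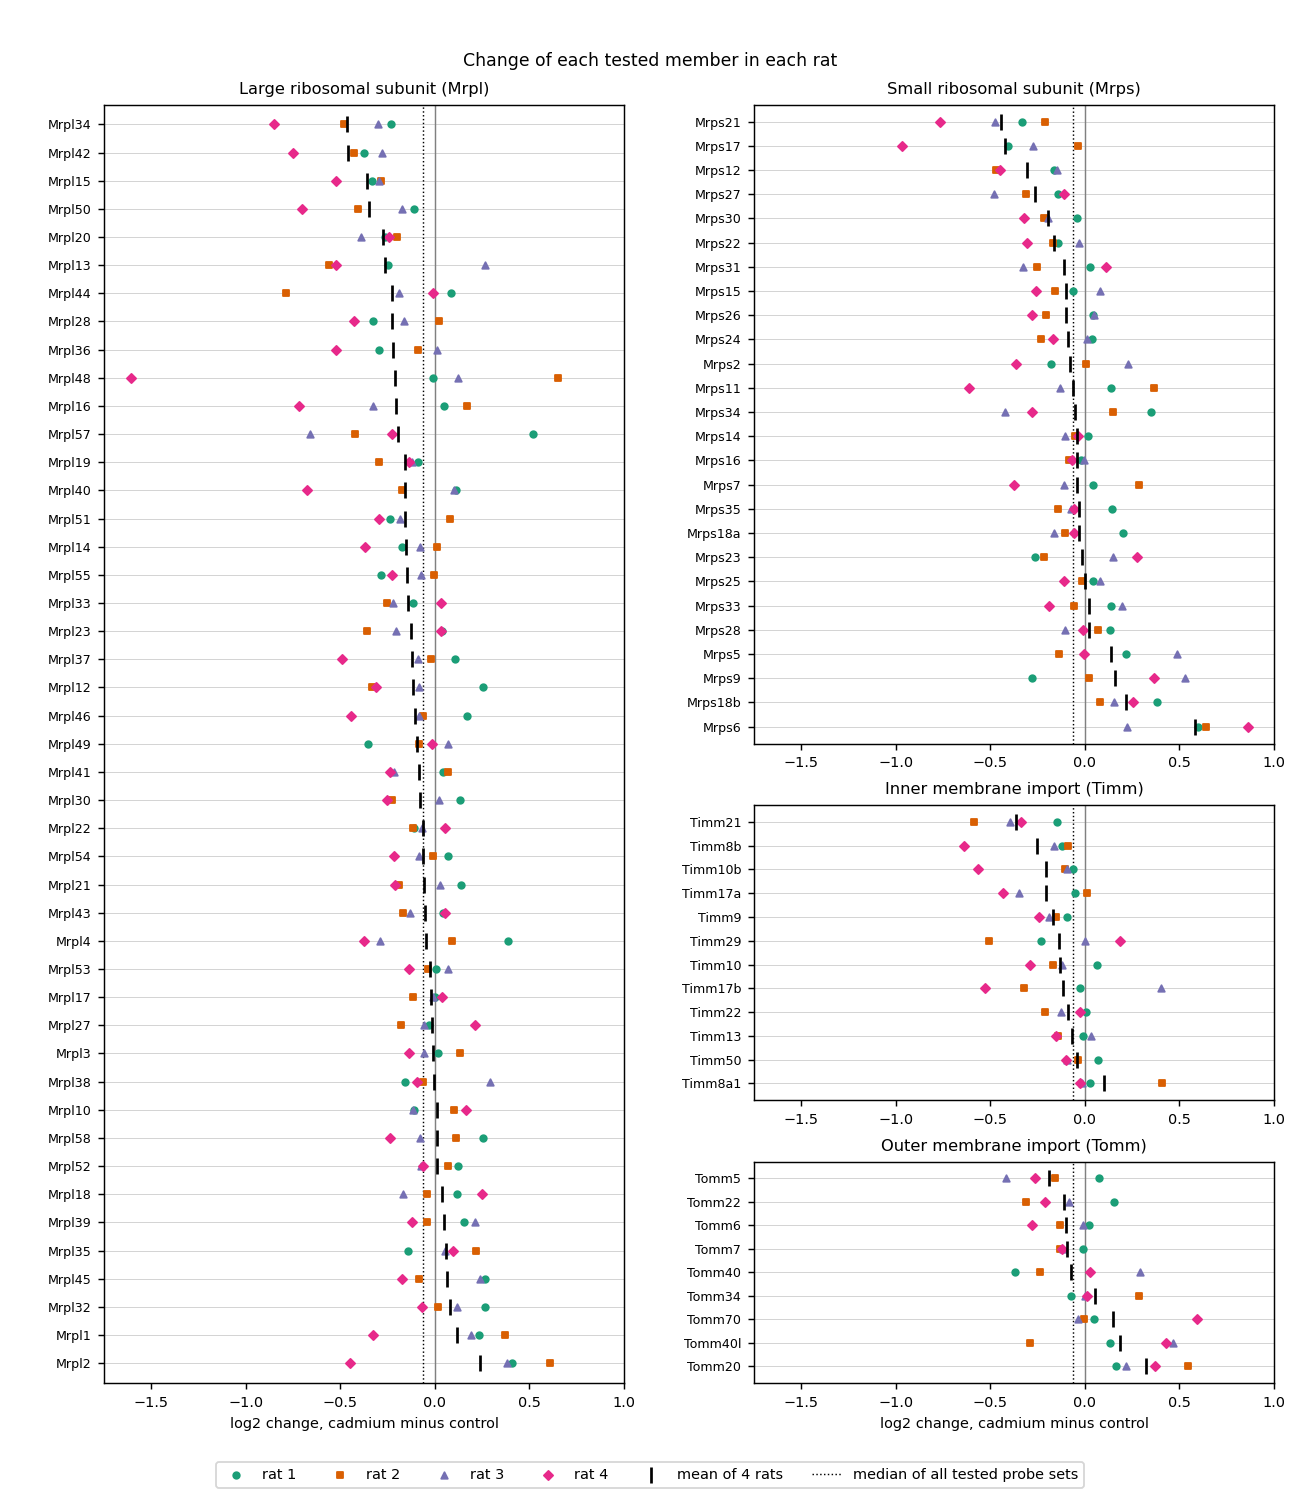
Log2 change (horizontal axis, cadmium minus control within a rat) of each of the 92 tested members, by subfamily and ordered by the mean, with a symbol for each rat, a black tick for the mean of 4 rats and a dotted line at the median of all tested probe sets (-0.06). Most means lie between the Mrpl34 value of -0.47 and 0; Mrps6 at 0.58 and Tomm20 at 0.32 stand at the upper end, and rat 4 is the lowest symbol for 47 of the 92 members.

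The subfamilies differed from the array as a whole by small amounts, which are described without a test since the members were chosen by name with earlier results known. The median log2 change was -0.10 for Mrpl, -0.05 for Mrps, -0.13 for Timm and -0.07 for Tomm, and -0.09 over all 92 members, beside -0.06 over all 9519 tested probe sets. Changes below 0 were seen in 71 of 92 members (77.2%), beside 61.4% of all tested probe sets. By subfamily these were 35 of 45 Mrpl genes, 20 of 26 Mrps genes, 11 of 12 Timm genes and 5 of 9 Tomm genes. The share was not particular to the members. Of 74 tested oxidative phosphorylation subunits 57 (77%) lay below 0, and of 40 tested cytosolic ribosomal proteins 18 (45%) did. The arrays also shifted as a whole, with a median signal of 192 to 197 in controls and 180 to 186 after cadmium (exact two-sided permutation p = 0.0286, the smallest that 70 assignments allow, with arrays permuted without regard to the rat). It was lower after cadmium in 4 of 4 rats, and the exact test over signs within rats gave p = 0.125, the smallest that 4 rats allow. With each array centred on its median the member median was -0.01, the Mrps median turned to 0.03 and the Tomm median to 0.01, while Mrpl stayed at -0.02 and Timm at -0.05, beside 0.02 for all tested probe sets.

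In 4 of 4 rats, 19 members were lower and 3 higher, beside 19.7% and 9.91% of all tested probe sets. With each array centred on its median, 10 members were lower and 6 higher in 4 of 4 rats, beside 11.8% and 15.8% of all tested probe sets. The 19 were 7 Mrpl genes (Mrpl34, Mrpl42, Mrpl15, Mrpl50, Mrpl20, Mrpl19 and Mrpl55), 7 Mrps genes (Mrps21, Mrps17, Mrps12, Mrps27, Mrps30, Mrps22 and Mrps16), the 4 Timm genes Timm21, Timm8b, Timm10b and Timm9, and Tomm7. The 3 higher ones were Mrps6, Mrps18b and Tomm20. Groups of arrays did not overlap for 7 lower members (Mrpl34, Mrpl42, Mrpl15, Mrpl20, Mrpl55, Mrps21 and Timm21), beside 7.22% of all tested probe sets, and for the same 3 higher members, beside 4.33%.

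The rats did not contribute alike. The median log2 change over the 92 members was 0.02 in rat 1, -0.10 in rat 2, -0.08 in rat 3 and -0.21 in rat 4, and 43, 65, 60 and 72 of the 92 members lay below 0. Over all tested probe sets the 4 rats gave nearly the same median, -0.06, -0.06, -0.05 and -0.07, with 57.9%, 57.8%, 57.1% and 57.2% below 0. Rat 4 held the lowest change of the 4 rats for 47 of 92 members (51.1%), among them 26 of 45 Mrpl and 9 of 12 Timm genes, beside 30.7% of all tested probe sets. Rat 1 held it for 9 members (9.78%), beside 24.8%. The Tomm genes did not share the order, with medians of 0.05, -0.13, -0.01 and 0.01 in rats 1 to 4.

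Subunits of oxidative phosphorylation, whose mitochondrially encoded partners these ribosomes make, gave rat medians of 0.05, -0.06, -0.04 and -0.26 over 74 tested genes, with a median of -0.08 for the mean change and no call in either direction. Proteins of the cytosolic ribosome gave 0.02, 0.00, 0.01 and -0.04 over 40 tested genes, with a median of 0.01 and no call. Rats 1 and 2 were run on chip lot 2 and rats 3 and 4 on lot 1. Within the lots the member medians were -0.06 (lot 2) and -0.10 (lot 1); rat 3, on the lot of rat 4, was at -0.08 and rat 4 at -0.21. Ratios of 3′ to 5′ GAPDH probes, a sign of RNA integrity, were 0.958 to 1.06 in controls and 0.972 to 1.11 after cadmium (exact permutation p = 0.286, or 0.5 within rats), and those of beta-actin were 1.38 to 1.79 and 1.43 to 1.63 (exact permutation p = 0.771, or 0.625 within rats). The highest beta-actin ratio, 1.79, was that of the control array of rat 4, with the other controls at 1.38 to 1.45 and the cadmium array of rat 4 at 1.63. All 9 hepatocyte markers on the array also had their lowest change in rat 4, with rat medians of 0.205, 0.08, 0.15 and -0.11. The widest apart was Cps1, the urea cycle's carbamoyl phosphate synthetase, with log2 differences of 0.205, 0.55, 0.17 and -0.91. Rat 4 held the lowest change for 47 of the 74 oxidative phosphorylation subunits (63.5%) and for 18 of the 40 cytosolic ribosomal proteins (45%). The part of these values in the rat 4 pattern was not tested.

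**Figure D3:**
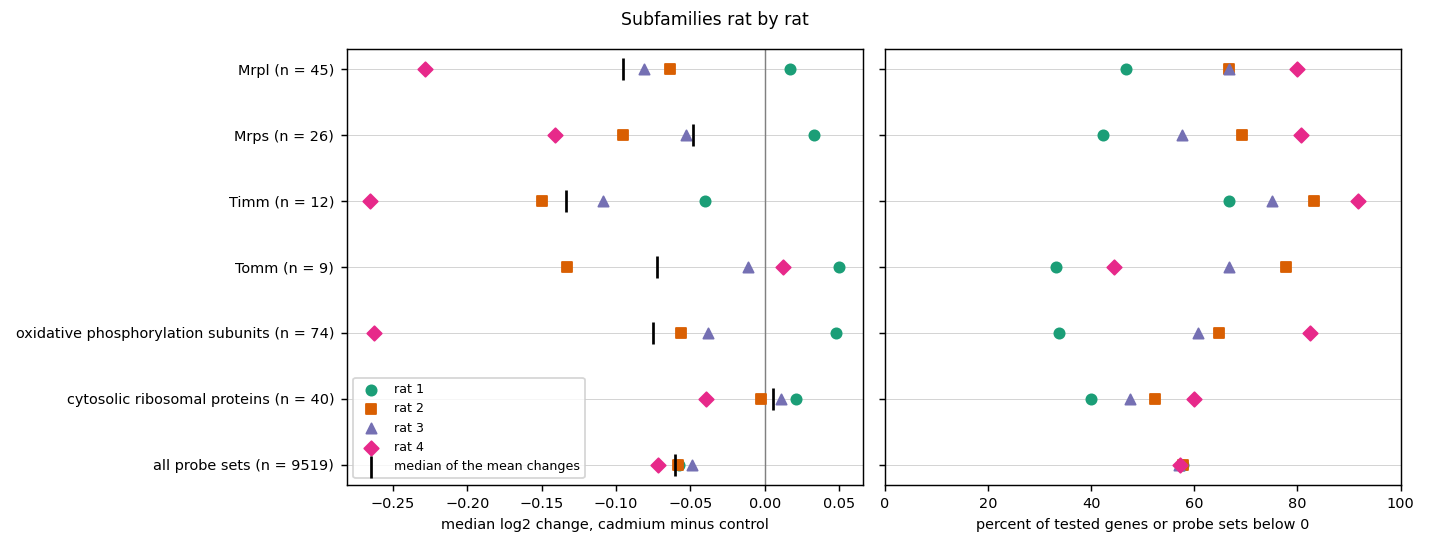
Left, median log2 change (cadmium minus control) in each rat for the 4 subfamilies, oxidative phosphorylation subunits, cytosolic ribosomal proteins and all tested probe sets, with a black tick for the median of the mean changes; right, the percent of the same genes below 0. For Mrpl, Mrps, Timm and the oxidative phosphorylation subunits rat 4 is lowest (-0.23, -0.14, -0.27 and -0.26) and rat 1 highest, while all tested probe sets lie together near -0.06.

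Apart from cadmium, the members' levels had a median range over the 4 rats of 0.23 on the log2 scale, beside 0.36 for all tested probe sets, 0.22 for the oxidative phosphorylation subunits and 0.20 for the cytosolic ribosomal proteins. None of the 92 passed limma's moderated F test for a difference between rats (adjusted p under 0.05), beside 1.75% of all tested probe sets and none in either comparison list. In the same test 4 of the 92 (4.35%) had an unadjusted p under 0.05, beside 15.7% of all tested probe sets. The standard error of the cadmium change had a median of 0.11 in the members, 0.14 over all tested probe sets, 0.09 in the oxidative phosphorylation subunits and 0.07 in the cytosolic ribosomal proteins.

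Several probe sets were available for 12 of the 93 genes, and 10 of these had more than 1 tested probe set. In 8 of the 10 all tested probe sets had the same sign. In the large subunit gene Mrpl52 the chosen probe set was at 0.01 and the other at -0.11, and in Timm8a1 they were at 0.10 and -0.10, all with intervals that include 0.

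**Figure D4:**
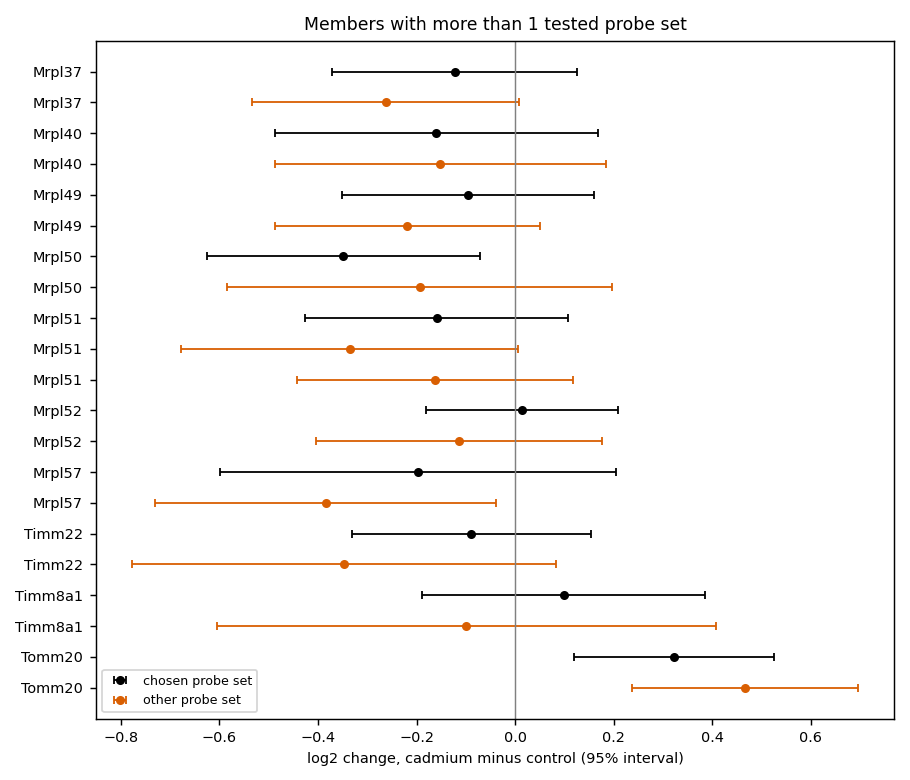
Log2 change (horizontal axis, cadmium minus control) with its 95% interval for every tested probe set of the 10 members that have more than 1, the chosen one in black and others in orange. Tomm20 is the only gene whose intervals lie wholly above 0, at 0.32 and 0.47, and the probe sets of Mrpl52 and Timm8a1 lie on both sides of 0.

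Other genes of the same pathways gave 4 calls among 84 tested genes in 12 lists (4.76%), a share near the 5.15% of all tested probe sets. Among the 10 tested genes of ribosome assembly and ribosomal RNA modification, 1 fell and none rose: Noa1, a GTPase needed for mitochondrial translation, read 228, 235, 248 and 251 in controls and 196, 105, 107 and 84.5 after cadmium. Its mean went from 240.4 ± 10.5 to 123 ± 49.7 (SD, n = 4), a change of -1.03 ± 0.24 (log2, SE; limma adjusted p = 0.0418), with rat 1 changing least. The call was lost with quantile normalization (adjusted p = 0.0653), median centring (0.0574), no filter (0.102), no variance trend (0.0675) or without rat 2, 3 or 4 (0.164, 0.147 and 0.0679). None passed among 5 mitoribosomal proteins under other symbols, where Chchd1 had the largest change at -0.17 (limma adjusted p = 0.354), or among 5 translation factors, led by the release factor Mtrf1l at -0.25 (limma adjusted p = 0.304). The 6 mitochondrial aminoacyl-tRNA synthetases, led by Hars2 at -0.34 (limma adjusted p = 0.227), and the 6 genes of mitochondrial DNA transcription, led by the RNA-stabilising Slirp at -0.31 (limma adjusted p = 0.13), also held no call. All 6 transcription genes lay below 0, with a median log2 change of -0.17.

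On the import side, no gene passed among 6 listed under the import motor (Romo1 at -0.19, limma adjusted p = 0.3). In that list 4 genes lay below 0 and 2 above. The 2 were Grpel1 at 0.19 (limma adjusted p = 0.297) and Hspa9 at 0.13 (limma adjusted p = 0.365), both higher in 4 of 4 rats. Nor did any pass among 5 presequence peptidases (Pmpca at 0.12, limma adjusted p = 0.531), 9 of outer membrane sorting (Mtx3 at -0.29, limma adjusted p = 0.25) and 5 of the intermembrane space (Gfer at -0.22, limma adjusted p = 0.286). Among 13 genes of matrix folding and proteolysis, 1 rose and none fell. It was Hspe1, the co-chaperonin that folds imported proteins, from 8445 ± 362 to 11316 ± 1285 (SD, n = 4), a change of 0.42 ± 0.08 (log2, SE; limma adjusted p = 0.0179). Its chaperonin partner Hspd1 was at 0.22 (limma adjusted p = 0.0999). The list did not move as 1, with 5 genes below 0 and 8 above. In 4 of 4 rats 3 of its genes were higher and 3 lower. The Hspe1 call was lost with quantile normalization (adjusted p = 0.0678), with no filter (0.0555), no variance trend (0.0984) and without rat 1, 2 or 3 (0.0646, 0.0996 and 0.0504).

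Of 9 tested carriers that use the TIM22 route, 1 fell and none rose. It was Slc25a15, the ornithine carrier of the urea cycle, went from 1037 ± 187 to 760.1 ± 178 (SD, n = 4), a change of -0.46 ± 0.10 (log2, SE; limma adjusted p = 0.0299). Without the rat as a block its adjusted p was 0.258, with median centring 0.0566 and without a variance trend 0.0712, and it was 0.128, 0.106 and 0.11 without rat 1, 2 or 3. The remaining carrier on the list, Slc25a25, which exchanges adenine nucleotides with phosphate, was left out by the filter on mean signal and so was not tested. It read 132.7, 19.5, 10.3 and 33.7 in controls and 336, 332, 205 and 588.5 after cadmium, higher in 4 of 4 rats with no overlap. With no filter its change was 3.41 ± 0.50 (log2, SE; limma adjusted p = 0.0172), where the size is uncertain because 3 of the 4 control signals were dim. Of 5 tested regulators of nuclear genes for mitochondrial proteins, 1 rose and none fell. This was Myc, a growth-related transcription factor, from 998 ± 159 to 1939 ± 402.5 (SD, n = 4), a change of 0.95 ± 0.17 (log2, SE; limma adjusted p = 0.0178), a call lost without a variance trend (adjusted p = 0.0665) and without rat 2 or rat 3 (adjusted p = 0.0809 and 0.0644). The nuclear receptor Esrra was at -0.65 (limma adjusted p = 0.0883). Yy1 and Ppargc1a, also on this list, were left out by the filter and not tested. Yy1 read 78.1, 64.9, 92.3 and 14.9 in controls and 101, 109.8, 179.5 and 78.3 after cadmium. It was higher in 4 of 4 rats, but the groups overlapped and the signals were dim.

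Markers of hepatocytes were high on all arrays: all 9 on the array passed the filter, none was called, and their summed signal was 110223 to 123040 in controls and 111972 to 131215 after cadmium. Of the markers of other liver cells, 2 of 5 for Kupffer cells (summed signal 1154 to 2580 in controls and 989 to 3143 after cadmium), 3 of 7 for stellate cells (1576 to 2338 and 1109 to 1758) and 1 of 4 for cholangiocytes (1812 to 2900 and 1127 to 2699) passed the filter. None of 4 for endothelial cells (109 to 197 and 46 to 158) or 4 for lymphocytes (150 to 246 and 156 to 205) did. The Kupffer marker Cd68 read 736.5, 958.4, 1703.5 and 2380.2 in controls of rats 1 to 4. After cadmium it read 708.5, 1013.3, 2152.4 and 2890.9. It differed between rats (limma moderated F test, adjusted p = 0.00064), while the Kupffer marker Csf1r did not pass that test (adjusted p = 0.544). Of the 3 tested stellate markers, Reln was lower after cadmium at -1.09 on the log2 scale (limma adjusted p = 0.00331). Acta2 was at 0.06 and Col1a1 at 0.30, neither past the test. The part of these markers in the member values was not tested.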

How the data were processed

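Total RNA of 8 cultures was hybridised to Affymetrix rat arrays, 1 array each. The deposited table holds 1 intensity (signal) per probe set and array, made by the authors with MAS5, per the submitters' processing notes; no source used here gives its version, scaling target or detection calls. Of 15923 probe sets, 57 controls were left out. Genes were named from the platform annotation (12783 probe sets with 1 symbol, 312 with several and left unnamed, 2771 with none); updating symbols to RefSeq changed no member. Signals were used as log2(signal + 1) with no further normalization. The added 1 shrinks the log2 changes of dim genes, and hardly those at signals of 118 or more. A filter removed the dimmest 40% of probe sets by mean (below a signal of 118), so 9519 were tested.

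Cadmium was compared with control by limma 3.58.1 (R 4.3.3), lmFit and eBayes with a variance trend (prior degrees of freedom 5.66) and the rat as a block, two-sided; p-values were adjusted over the 9519 probe sets (Benjamini-Hochberg, threshold 0.05). The labels tie both cultures of a number to 1 rat. Deviations of the 2 arrays of a rat from their group means correlated at 0.196 to 0.475 over probe sets, and the highest correlation between rats was -0.00828. Subtracting the group means pushes correlations between rats below 0 where those within rats are positive, so this contrast is partly built in. The number of arrays limits the precision. The run settings deposited per array gave chip lots and fluidics modules: each lot held both groups, but all controls ran on module 1 and all cadmium arrays on module 2, so module and group cannot be told apart. The fit was also run on simulated data with independent noise for each probe set. Those data held no shift of whole arrays, so they cannot speak to the array shift or to the modules.

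Named genes are the members past the threshold, the 3 highest and 3 lowest tested members of each subfamily, genes whose probe sets differ in sign and, of each other list, the called genes or the largest change. Mrpl48, Mrps30, Timm9, Timm10, Timm17a, Timm22, Timm29, Timm44, Tomm7, Tomm34, Tomm40, Hspd1, Grpel1, Hspa9, Esrra, Slc25a25, Cps1, Reln, Acta2 and Col1a1, and those listed by name as lower in every rat, were added after their values were seen. So were Cd68, Csf1r, Yy1 and Ppargc1a. The members and lists were chosen with earlier results of these data known. Alternatives tried were no block, other pseudocount, filters, normalization, no trend, mean of probe sets, chip lots and leaving out each rat; the exact test over signs within rats was added after seeing the data.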

Additional observations from a re-analysis of the deposited data

Results flagged for a closer look

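Within a group of 4 values, a value was marked where its gap to the nearest other value, as a share of the whole range, exceeded Dixon's 95% critical value. Of 80 groups over 25 named members, 5 were marked; chance marks about 1 in 20. For Mrpl42 the cadmium signal of rat 4 was 1047 and those of the other rats 1376 to 1446 (share 0.846). For Timm8b the log2 change of rat 4 was -0.64 and those of the others -0.16 to -0.09 (share 0.865). For Timm10b the log2 change of rat 4 was -0.57 and those of the others -0.11 to -0.06 (share 0.914). For Timm8a1 the log2 change of rat 2 was 0.41 and those of the others -0.03 to 0.03 (share 0.873). For Tomm70 the log2 change of rat 4 was 0.59 and those of the others -0.04 to 0.05 (share 0.86). In 4 of the 5 the value apart was that of rat 4.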

How the results depend on the processing

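With no replicate block, so without pairing the cultures by rat, 0 members rose and 0 fell (Mrps6 adjusted p = 0.0615, Mrpl42 adjusted p = 0.0597), and 0 and 0 without a variance trend; the cause was not tested. Mrps6 passed in 10 of 14 alternatives (adjusted p 0.0114 to 0.125) and Mrpl42 in 7 of 14 (0.0295 to 0.136). The 14 include updated symbols, which changed no member and so repeated the main fit. They also include a threshold of 0.1, which a gene called in the main fit cannot fail. Both genes were bound to pass in these settings, so these passes say nothing about robustness. The count of lower members was 2 with a pseudocount of 32 (both Mrpl), 0 with no filter, 3 with a 60% filter (2 Mrpl and 1 Mrps), 2 with probe sets of a gene averaged (both Mrpl) and 4 at a threshold of 0.1 (3 Mrpl and 1 Mrps), where 2 were higher (1 of them Tomm). Median centring gave 2 higher (1 Tomm) and 0 lower. Leaving out each rat in turn gave 0 to 2 higher (Mrps 0 to 1, Mrpl 0 to 1) and 0 to 1 lower (Mrpl 0 to 1), with 1 animal fewer in each fit; the Mrpl gene was Mrpl2, without rat 4.

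Members higher in every rat were 5 with quantile normalization and 6 with median centring, which left 10 lower in every rat. Without 1 rat each, these counts were 3 to 6 and 23 to 34, with 1 rat fewer to meet the rule. The median log2 change of all tested probe sets was -0.0362 with quantile normalization and 0.0178 with centring, where the Mrps median was 0.0302. Leaving out each rat gave medians of -0.124 to -0.0406 for all members and -0.0873 to 0.0258 for Tomm, the upper value without rat 1. These genes near 0 changed sign: Timm13 (0.0106) and Timm50 (0.0377) with median centring, Mrpl52 (-0.0503) and Timm8a1 (-0.000389) with their probe sets averaged, Mrpl52 without rat 1 (-0.0231) or rat 2 (-0.0051; range over left-out rats -0.0231 to 0.0428), and Timm8a1 without rat 2 (-0.00457; range -0.00457 to 0.1405). Timm44 signals, all below the filter, limit what can be said of that gene.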
